A study of Mus musculus with 16 samples.

Results

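Glycogen is the branched glucose polymer in which animal cells store sugar, and its transcripts were followed here through 8 mouse genes that encode the enzymes of its synthesis and breakdown: Gyg, Gys1, Gbe1, Ugp2, Pgm1, Pgm2, Pygl and Pygb. The genes were taken by name, through their Ensembl identifiers, as 8 of the 53801 genes in the count table. They are the enzymes of a known pathway, picked when earlier results of these data were known. All 8 were found, and all 8 were among the 13774 genes with enough counts to be tested. RNA sequencing had been carried out on a cell line of acute myeloid leukemia (AML) from the mouse, driven by MLL-AF9, a fusion oncogene that transforms blood progenitors. The cells were cultured in RPMI medium with serum, interleukin 3 and stem cell factor. All of them carried a Cas9 that 4-OHT (4-hydroxytamoxifen) switches on, and in every group it had been switched on. The control cells carried a guide RNA with no target. The MCT4-KO cells carried a guide against MCT4, the product of Slc16a3, a plasma membrane carrier that exports lactate with a proton. Each genotype was kept at 20% or at 2% oxygen, with 4 libraries in each of the 4 groups and 16 in all. MCT4-KO is an edited population rather than a stated clone, and where its guide cuts is not given in the sources used here. Nothing says that the 4 libraries of a group came from separate cultures. The p-values therefore rest on the spread among these libraries, which may be technical.

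Glucose 6-phosphate enters the pathway through phosphoglucomutase, which turns it into glucose 1-phosphate. Pgm1 and Pgm2 both carry that name, and how much each serves this step was not measured. UDP-glucose pyrophosphorylase (Ugp2) turns glucose 1-phosphate into UDP-glucose, the activated sugar. Glycogenin (Gyg) primes a chain on itself, glycogen synthase (Gys1, the form found outside the liver) lengthens it, and the branching enzyme (Gbe1) adds the branch points. Glycogen phosphorylase frees glucose 1-phosphate from the chain ends again, in a form named after the liver (Pygl) and a form named after the brain (Pygb). Low oxygen is known to raise glycogen stores in several cultured cell types, and GYS1 is a known target of hypoxia-inducible factor 1 in cultured cells.

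The promoters of the 4 enzymes whose transcripts rose most at 2% oxygen, and of Ugp2, which was among those that rose least, are shown because hypoxia-inducible factors bind the 5 letters ACGTG or GCGTG. The sequences come from RefSeq on GRCm38.p6, are written 5′ to 3′ on the gene's strand and end at or just before the RefSeq start. They leave out bases that the gene annotation places in exons of coding genes. Capitals mark either motif or its reverse complement, which is CACGT for the first motif and CACGC for the other, and matches that overlap were counted separately. The stretches are chr7:45434710-45434838 for Gys1, chr16:70313699-70313948 for Gbe1 and chr4:99929201-99929413 for Pgm1, all on the plus strand, and chr12:70227684-70227933 for Pygl and chr11:21371268-21371517 for Ugp2, both on the minus strand. The RefSeq start of Pygl lies inside the span that GENCODE gives the gene.
Gys1: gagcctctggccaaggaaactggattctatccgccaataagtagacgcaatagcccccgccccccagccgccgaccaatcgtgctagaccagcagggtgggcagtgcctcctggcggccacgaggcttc
Gbe1: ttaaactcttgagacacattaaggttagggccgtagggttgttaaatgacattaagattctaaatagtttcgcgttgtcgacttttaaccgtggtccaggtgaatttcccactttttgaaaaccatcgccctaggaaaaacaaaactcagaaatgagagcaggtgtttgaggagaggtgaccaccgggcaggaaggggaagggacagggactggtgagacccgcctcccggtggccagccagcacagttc
Pgm1: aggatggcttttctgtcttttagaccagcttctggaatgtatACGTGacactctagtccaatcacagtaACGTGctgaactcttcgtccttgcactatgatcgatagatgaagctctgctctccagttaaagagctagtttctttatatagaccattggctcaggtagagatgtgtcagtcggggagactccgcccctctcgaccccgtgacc
Pygl: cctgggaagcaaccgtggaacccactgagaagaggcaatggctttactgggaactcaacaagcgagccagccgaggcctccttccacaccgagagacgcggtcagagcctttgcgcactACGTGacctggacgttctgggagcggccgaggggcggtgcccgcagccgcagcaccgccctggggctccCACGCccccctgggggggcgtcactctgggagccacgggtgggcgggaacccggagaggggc
Ugp2: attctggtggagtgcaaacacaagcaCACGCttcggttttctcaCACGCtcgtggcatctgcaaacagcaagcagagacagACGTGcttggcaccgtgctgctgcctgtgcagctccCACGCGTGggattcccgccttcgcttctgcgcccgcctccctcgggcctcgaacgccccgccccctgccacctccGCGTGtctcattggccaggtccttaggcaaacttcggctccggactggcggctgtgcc

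In the full 250 bases before the start, Gys1 and Gbe1 held no match, and Pgm1 and Pygl held 2 each. Pygb also held 2, Gyg and Pgm2 held 1 each, and Ugp2 held 6 before its upstream start and none before its downstream start. Of the 9 promoters of the 8 enzymes 6 had at least 1 match, against 55.2% of the 12625 promoters of tested genes and 38.6% of all 32817 promoters in the same table. The letters CACGTG, which 6.02% of all promoters held, were in no promoter of the 8 enzymes. A match describes the letters only, and windows of this length do not cover sites further away.

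Levels are CPM, counts relative to the size of the library, after scaling by TMM, the trimmed mean of M-values. Library totals ran from 21192179 to 28871459 estimated counts, and the 8 enzymes had between 720 and 28880 counts in a library. Slc16a3 itself stood at 234.9, 198.7, 183.7 and 222.3 CPM in the control libraries at 20% oxygen and at 70.4, 72.4, 82.1 and 94.7 CPM in MCT4-KO. At 2% oxygen it stood at 788.7, 844.2, 809.7 and 804.3 CPM in control and at 370.3, 368.9, 357.6 and 363.0 CPM in MCT4-KO, so the transcript was lower in every MCT4-KO library but still present. All 12 markers of myeloid leukemia progenitors reached a mean of at least 1 CPM in each group. Their sum ran from 4192.5 to 4560.0 CPM over the 8 libraries at 20% oxygen and from 7336.8 to 8103.3 CPM over the 8 at 2%. In control at 2% oxygen, replicate 4 differed from the other 3 libraries with a chi-square per gene of 8.61 to 12.9, against 2.55 to 3.38 among those 3, and calls of the named genes that change without it are given without it too. Among the 4 control libraries at 20% oxygen this value ran from 3.53 to 9.25, among those of MCT4-KO from 2.49 to 7.72 at 20% and from 1.77 to 2.81 at 2%.

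Per kilobase of exon, Pygl was the most abundant of the 8 transcripts in control cells at 20% oxygen, at 52.4 ± 1.35 CPM per kb (SD, n = 4). Ugp2 (31.2 ± 1.07), Pgm1 (29.1 ± 2.54) and Gyg (28.7 ± 0.584) followed, with overlapping libraries between neighbours. Gbe1 stood at 20.1 ± 0.371 CPM per kb, apart from those above and below it. Pgm2 (13.4 ± 0.712) and Gys1 (12.8 ± 1.04) overlapped, and Pygb came last at 7.02 ± 0.293. In MCT4-KO at 20% oxygen Pygl (49.1 ± 1.09) also led and Pygb (7.53 ± 0.166) came last, while Gyg (31.2 ± 1.90) stood above Ugp2 (29.5 ± 0.608), with overlapping libraries. At 2% oxygen the order in control cells had changed: Pgm1 (182.2 ± 5.59) and Pygl (175.1 ± 4.85) overlapped at the top, and Gys1 had moved from the seventh place to the third at 113.6 ± 4.38. Gbe1 followed at 77.9 ± 2.35, and Gyg (45.9 ± 3.54) and Ugp2 (44.9 ± 0.541) overlapped behind it. Pgm2 (19.4 ± 1.2) and Pygb (19.3 ± 0.965) overlapped at the bottom. In MCT4-KO cells at 2% oxygen the order was the same, with Pgm1 at 158.2 ± 2.86 and Pygl at 152.9 ± 1.97. Their libraries only just missed each other, as the lowest of Pgm1 and the highest of Pygl both rounded to 154.7 CPM per kb. These lengths are the union of a gene's annotated exons, 6895 bases for Pygl against 3150 in its longest transcript. With the longest transcript instead, Pygl was first in control cells at 2% oxygen too, at 383.3 CPM per kb against 211.0 for Pgm1. In MCT4-KO cells at 2% oxygen Pygl was then first as well, at 334.7 against 183.2 for Pgm1. Lower places changed too. In control at 20% oxygen Gys1 (16.7) then stood above Pgm2 (14.6), with overlapping libraries. In control at 2% Pygb (23.7) then stood above Pgm2 (21.2), without overlap.

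**Figure D1:**
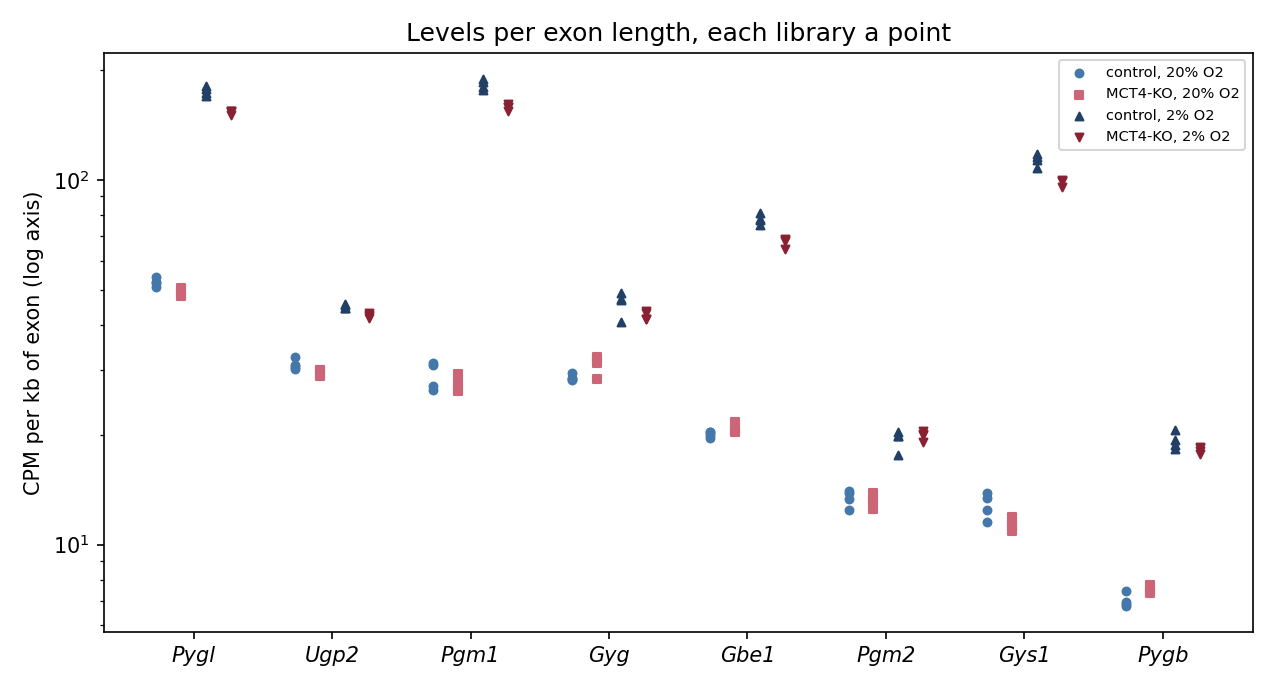
Level of each enzyme in CPM per kb of exon (y axis, logarithmic) with genes on the x axis in the order of control cells at 20% oxygen, each point a library and each symbol a group. Gys1 lies near Pgm2 at 20% oxygen and well above it at 2%, where control means are 113.6 and 19.4 CPM per kb.

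Transcripts of all 8 enzymes rose at 2% oxygen in control cells, and all 8 rose in MCT4-KO cells as well, with no overlap between the libraries at 20% and 2%. Among all tested genes 38.7% were called higher in control and 37.7% in MCT4-KO at an adjusted p under 0.05, and 34.9% and 35.9% were higher without overlap. The rise was at least 2-fold for 5 of the 8 (Gys1, Pgm1, Gbe1, Pygl and Pygb) in both genotypes, against 11.4% and 10.3% of all genes. Gyg, Pgm2 and Ugp2 rose by less. The median log2 fold change of the 8 was 1.60 in control and 1.45 in MCT4-KO, beside -0.02 and -0.01 over all genes tested. In such bulk samples a change in the kinds of cells and a change in RNA per cell cannot be told apart.

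Markers of mature neutrophils, which store glycogen, moved with oxygen. The 8 neutrophil markers summed to between 7.54 and 9.20 CPM over the libraries at 20% oxygen, to 61.8 to 86.2 CPM in control at 2% and to 57.3 to 67.9 CPM in MCT4-KO at 2%. None of the 8 was at 0 in every library of a group, 3 reached a mean of 1 CPM at 20% oxygen (Ly6g, Mmp8 and Mmp9) and 6 did at 2%. The share of counts from mitochondrially encoded genes also differed, at 0.750% ± 0.179 and 0.720% ± 0.067 at 20% oxygen in control and MCT4-KO and 0.298% ± 0.044 and 0.379% ± 0.036 at 2% (SD, n = 4). Myeloid progenitor, megakaryocyte and erythroid markers were higher at 2% oxygen too. The 12 myeloid progenitor markers summed to 4192.5 to 4560.0 CPM over the libraries at 20% and to 7336.8 to 8103.3 CPM at 2%. The 4 megakaryocyte markers summed to 0.813 to 1.86 CPM over the libraries at 20% and to 10.2 to 14.8 CPM at 2%, where Pf4 and Ppbp reached a mean of 1 CPM. The 5 erythroid markers summed to 1.17 to 2.07 CPM at 20% and to 2.33 to 4.24 CPM at 2%. The part of these shifts in the rise of the enzymes was not tested.

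The chain-lengthening enzyme showed the steepest rise. Gys1 (ENSMUSG00000003865, chr7:45434844-45456619 on GRCm38, plus strand) stood at 64.2, 55.2, 59.5 and 66.3 CPM in the control libraries at 20% oxygen and at 543.1, 563.6, 553.8 and 515.0 CPM at 2%. In MCT4-KO it stood at 54.4, 52.4, 53.7 and 56.9 CPM at 20% and at 476.2, 459.0, 473.7 and 477.1 CPM at 2%. The lowest library at 2% oxygen was thus far above the highest at 20% in either genotype. The rise was 8.87-fold in control, a log2 fold change of 3.15 ± 0.048 (SE, edgeR adjusted p = 3.29e-21), and 8.67-fold in MCT4-KO (3.12 ± 0.048, adjusted p = 5.27e-21). Ordered by log2 fold change in control, Gys1 was number 191 of the 13774 genes. Of its exon bases 6.47% are shared with Ruvbl2 on the opposite strand, which itself rose by a log2 fold change of 0.97 in control, and whether the counting used strand is not given in the sources used here.

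The branching enzyme rose about as much as the liver-type phosphorylase. Gbe1 (ENSMUSG00000022707, chr16:70313949-70569716, plus strand) stood at 106.5, 105.1, 108.7 and 109.4 CPM in control at 20% oxygen and at 403.0, 433.4, 416.7 and 414.4 CPM at 2%. In MCT4-KO it stood at 116.2, 110.4, 108.6 and 109.8 CPM at 20% and at 366.3, 346.4, 364.3 and 368.0 CPM at 2%. In both genotypes the groups were far apart, and at 2% oxygen every MCT4-KO library was below every control library. The rise was 3.88-fold in control (log2 fold change 1.96 ± 0.034, edgeR adjusted p = 9.60e-21) and 3.25-fold in MCT4-KO (1.70 ± 0.033, adjusted p = 8.65e-20). Glycogenin, the primer, moved less. Gyg (ENSMUSG00000019528, chr3:20122084-20155317, minus strand) stood at 66.6, 67.0, 66.4 and 69.3 CPM in control at 20% oxygen and at 114.5, 109.9, 110.2 and 95.5 CPM at 2%. Its MCT4-KO libraries stood at 66.6, 75.6, 76.4 and 73.8 CPM at 20% and at 97.6, 101.3, 102.7 and 97.3 CPM at 2%. The low value among the control libraries at 2% was that of replicate 4. Gyg rose by a log2 fold change of 0.68 ± 0.050 in control (adjusted p = 8.81e-11) and 0.45 ± 0.049 in MCT4-KO (adjusted p = 5.73e-08).

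Of the enzymes that feed UDP-glucose into the pathway, 1 phosphoglucomutase rose steeply and the others little. Pgm1 (ENSMUSG00000025791, chr4:99929414-99987294, plus strand) stood at 90.9, 79.6, 77.5 and 91.7 CPM in control at 20% oxygen and at 523.6, 540.2, 514.4 and 550.7 CPM at 2%. In MCT4-KO it stood at 77.9, 76.8, 82.1 and 85.9 CPM at 20% and at 472.4, 462.7, 461.6 and 452.0 CPM at 2%. That was a 6.26-fold rise in control (log2 fold change 2.65 ± 0.050, edgeR adjusted p = 4.12e-20) and a 5.73-fold rise in MCT4-KO (2.52 ± 0.050, adjusted p = 1.08e-19). Of the exon bases of Pgm1 13.6% are shared with Itgb3bp on the opposite strand, whose level was 6.60 to 8.90 CPM as group means. The other phosphoglucomutase, Pgm2 (ENSMUSG00000029171, chr5:64092950-64128351, plus strand), stood at 35.6, 34.6, 32 and 36.2 CPM in control at 20% oxygen and at 52.7, 51.4, 51.2 and 45.7 CPM at 2%. Its MCT4-KO libraries stood at 35.8, 32.3, 34.6 and 34.1 CPM at 20% and at 51.8, 53.1, 52.2 and 49.4 CPM at 2%. Every library at 2% was above every library at 20%, by a log2 fold change of 0.54 ± 0.048 in control (adjusted p = 2.29e-09) and 0.60 ± 0.048 in MCT4-KO (adjusted p = 4.41e-10). Older annotation releases exchange the names Pgm1 and Pgm2, and the names here are those of GENCODE vM21.

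Ugp2 (ENSMUSG00000001891, chr11:21321138-21371201, minus strand), which makes UDP-glucose, stood at 94.1, 93.0, 100.4 and 95.6 CPM in control at 20% oxygen and at 138.9, 136.6, 136.4 and 139.7 CPM at 2%. In MCT4-KO it stood at 92.4, 92.1, 88.6 and 89.6 CPM at 20% and at 132.4, 130.5, 130.1 and 128.7 CPM at 2%. The groups did not overlap, and the rise was 1.44-fold in both genotypes, with log2 fold changes of 0.53 ± 0.030 in control (edgeR adjusted p = 1.49e-12) and in MCT4-KO (adjusted p = 1.85e-12). Of its exon bases 2.54% are shared with Gm12043 on the opposite strand.

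Both phosphorylases rose, the liver form from a much higher level. Pygl (ENSMUSG00000021069, chr12:70190811-70231488, minus strand) stood at 360.4, 351.0, 360.3 and 373.7 CPM in control at 20% oxygen and at 1193.3, 1247.0, 1219.7 and 1169.6 CPM at 2%. Its MCT4-KO libraries stood at 334.0, 331.3, 341.0 and 347.9 CPM at 20% and at 1060.8, 1035.3, 1054.4 and 1066.6 CPM at 2%. At each oxygen level every MCT4-KO library lay below every control library. Pygl rose 3.34-fold in control (log2 fold change 1.74 ± 0.031, edgeR adjusted p = 1.41e-20) and 3.11-fold in MCT4-KO (1.64 ± 0.031, adjusted p = 4.22e-20). Pygb (ENSMUSG00000033059, chr2:150786735-150831758, plus strand) stood at 33.0, 32.7, 33.5 and 35.8 CPM in control at 20% oxygen and at 99.0, 92.8, 90.5 and 88.2 CPM at 2%. In MCT4-KO it stood at 35.5, 37.3, 35.9 and 36.3 CPM at 20% and at 86.5, 88.8, 85.2 and 88.7 CPM at 2%. The genotypes overlapped at both oxygen levels, and the rise with low oxygen was 2.75-fold in control (1.46 ± 0.040, adjusted p = 9.47e-18) and 2.41-fold in MCT4-KO (1.27 ± 0.040, adjusted p = 9.01e-17).

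**Figure D2:**
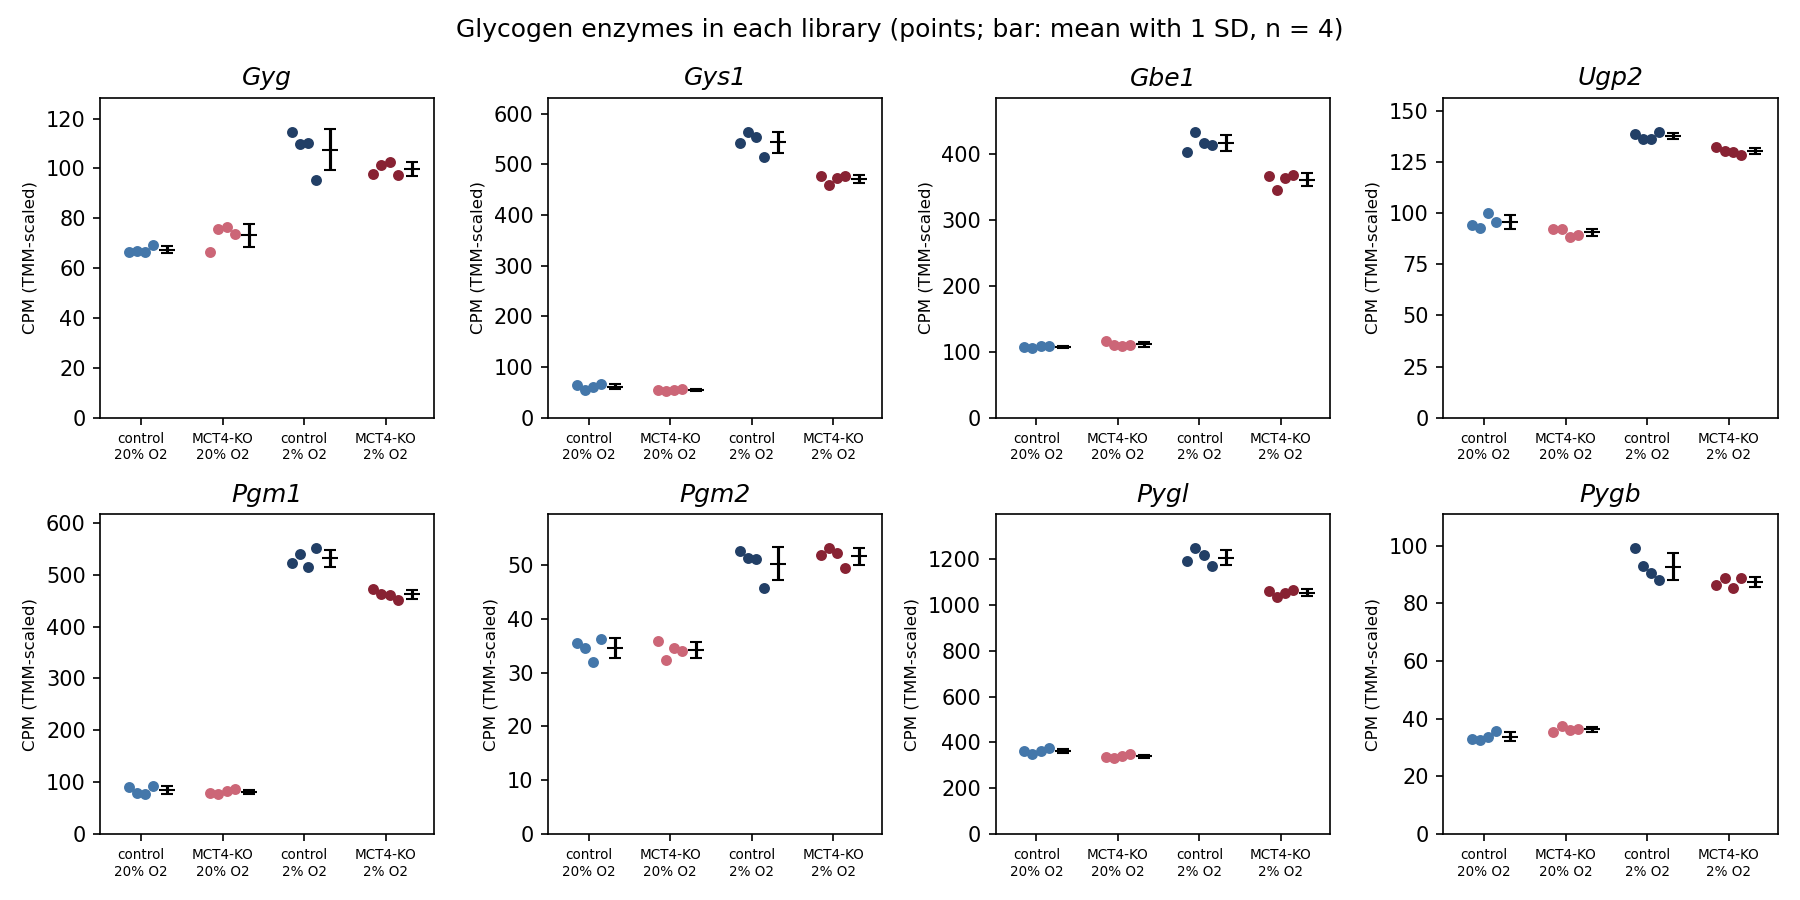
CPM of each enzyme (y axis, from 0) in each library (points) of the 4 groups (x axis), with the mean and 1 SD of 4 libraries beside them. For Gys1 the control libraries lie between 55.2 and 66.3 CPM at 20% oxygen and between 515.0 and 563.6 CPM at 2%, and MCT4-KO libraries at 2% lie just below those.

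At 20% oxygen the knockout left most of the enzymes within the spread of the libraries. Only Gys1 was called, with a log2 fold change of -0.17 ± 0.049 (SE, edgeR adjusted p = 0.028) from a mean of 61.3 ± 4.98 CPM in control to 54.4 ± 1.90 CPM in MCT4-KO (SD, n = 4), and the highest MCT4-KO library, 56.9 CPM, was above the lowest control library, 55.2 CPM. That call was lost without control replicate 1 (adjusted p = 0.0933) or 4 (0.0947), without MCT4-KO replicate 1 (0.0531), 2 (0.0962) or 3 (0.0753), and with only the 2 groups fitted (0.067). Among all genes 9.76% were called in this comparison and 4.80% were called lower, so 1 of 8 is near the background. Pygl, with its libraries apart, had a log2 fold change of -0.09 ± 0.030 (adjusted p = 0.0539). It was called without control replicate 2 at 20% (0.0467) or control replicate 4 at 2% (0.0363), and with the stricter filter (0.0482), limma-voom (0.0447) or DESeq2 (0.0151). Ugp2 was also lower without overlap (-0.08 ± 0.030, adjusted p = 0.111), where 6.89% of all genes were. The remaining 5 overlapped, with log2 fold changes of 0.12 ± 0.050 for Gyg, 0.10 ± 0.042 for Pygb, 0.05 ± 0.034 for Gbe1, -0.02 ± 0.049 for Pgm2 and -0.07 ± 0.050 for Pgm1. Gyg reached an adjusted p of 0.0438 without MCT4-KO replicate 1 and of 0.045 without control replicate 4 at 2%.

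At 2% oxygen 5 of the 8 enzymes fell in MCT4-KO cells. This comparison uses the same control libraries at 2% oxygen as the oxygen comparison above. Gys1, Gbe1, Pgm1 and Pygl were lower by nearly the same amount, to between 0.867 and 0.873 of the control level, without overlap between the libraries. Their log2 fold changes were -0.21 ± 0.043 for Gys1 (edgeR adjusted p = 7.61e-04), -0.21 ± 0.032 for Gbe1 (3.92e-05), -0.20 ± 0.046 for Pgm1 (0.00163) and -0.20 ± 0.030 for Pygl (3.40e-05). These 4 calls held in all 24 alternative analyses of this comparison. Of all tested genes 38.4% were called in this comparison, 19.1% were called lower, and 18.5% were lower without overlap. Ugp2 fell by less, from 137.9 ± 1.66 to 130.4 ± 1.53 CPM (log2 fold change -0.08 ± 0.030, adjusted p = 0.0384). The call of Ugp2 was lost in 11 of 24 alternatives, among them each of the 8 that left out a library of these groups (adjusted p from 0.0524 to 0.0939), the replicate block (0.0686) and scaling by library size (0.294).

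Gyg, Pygb and Pgm2 were not called at 2% oxygen and their libraries overlapped. Gyg had a log2 fold change of -0.11 ± 0.049 (edgeR adjusted p = 0.0842) and Pygb of -0.09 ± 0.037 (0.0733). Both were called lower without control replicate 4 at 2% oxygen, at -0.16 for Gyg (adjusted p = 0.00375) and -0.11 for Pygb (0.0259), and Pygb was called with the stricter filter as well (0.0493). Pgm2 had means of 50.3 ± 3.12 CPM without and 51.6 ± 1.57 CPM with the knockout (0.04 ± 0.047, adjusted p = 0.544). The median log2 fold change of the 8 enzymes was -0.15 at 2% oxygen and -0.05 at 20%, beside -0.0040 and -0.0051 over all genes. Marker sums moved with the knockout at 2% oxygen as well. The neutrophil sum averaged 77.4 CPM without and 62.1 CPM with the knockout, with overlapping libraries. The 12 myeloid progenitor markers summed to 7769.0 to 8103.3 CPM without the knockout and to 7336.8 to 7750.2 CPM with it, without overlap. Megakaryocyte markers lay between 11.2 and 14.8 CPM without the knockout and between 10.2 and 10.8 CPM with it, without overlap, and the mitochondrial shares of 0.241% to 0.338% and 0.330% to 0.413% overlapped. Their part in the lower levels of the enzymes was not tested.

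**Figure D3:**
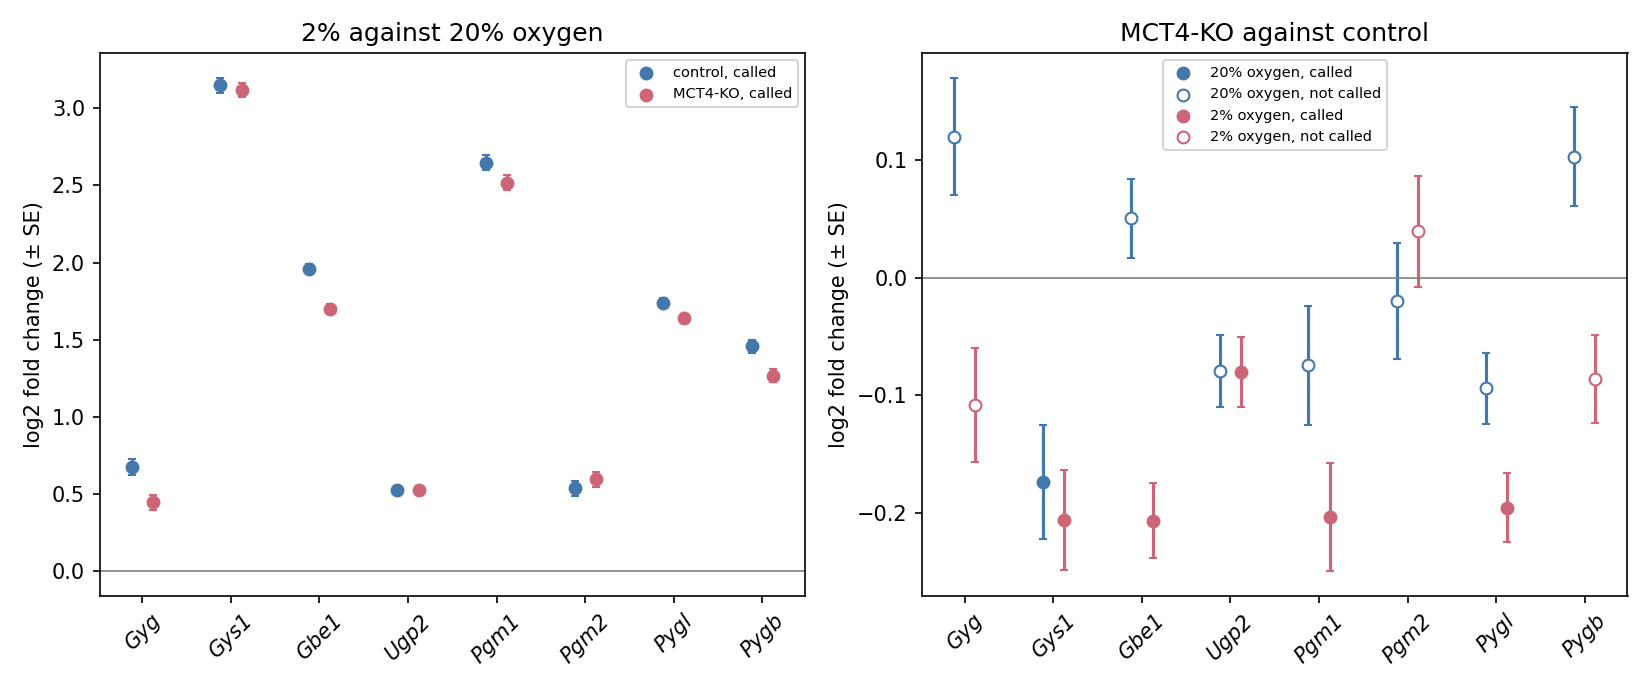
Log2 fold change of each enzyme with its SE, for 2% against 20% oxygen (left, control and MCT4-KO) and for MCT4-KO against control (right, at 20% and 2% oxygen), with filled points where the adjusted p is under 0.05. All points on the left are filled and between 0.45 and 3.15, while on the right Gys1, Gbe1, Pgm1 and Pygl lie near -0.2 at 2% oxygen.

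Whether the knockout effect differed between the oxygen levels was tested by the interaction term. Gbe1, Gyg and Pygb were called, each with a knockout effect that was lower at 2% than at 20% oxygen, 3 of 8 against 22.9% of all genes called and 11.3% called in that direction. The difference in log2 fold change was -0.26 ± 0.046 for Gbe1 (edgeR adjusted p = 4.99e-04), -0.23 ± 0.070 for Gyg (0.0225) and -0.19 ± 0.056 for Pygb (0.0196). The group means of Gbe1 were 107.4 and 111.3 CPM without and with the knockout at 20% oxygen, and 416.9 and 361.3 CPM at 2%. The call of Gbe1 held in all 23 alternatives, while scaling by library size ended those of Gyg (adjusted p = 0.0551) and Pygb (0.0554). That of Gyg was also lost without MCT4-KO replicate 3 at 20% (0.0523) or control replicate 1 at 2% oxygen (0.0503). Gys1 had a difference of -0.03 ± 0.065 and Ugp2 of -0.00075 ± 0.043, so no difference was detectable for either at this spread. For Pgm1 it was -0.13 ± 0.068 (0.19), for Pgm2 0.06 ± 0.068 (0.582) and for Pygl -0.10 ± 0.042 (0.0913). Pygl was called without control replicate 4 at 2% oxygen (0.0449) and by DESeq2 (0.0314).

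Ratios between enzymes within a library do not depend on how libraries are scaled. Pygl made up 88.2% of the transcripts of both phosphorylases per kb of exon in control cells at 20% oxygen, 86.7% in MCT4-KO at 20%, 90.1% in control at 2% and 89.4% in MCT4-KO at 2%. The ratio of Pygl to Pygb was 7.47 ± 0.140, 6.52 ± 0.226, 9.10 ± 0.470 and 8.43 ± 0.218 in those groups (SD, n = 4). It was thus higher at 2% oxygen in both genotypes and lower in MCT4-KO at 20% oxygen, with no overlap in these 3 comparisons. For each of them the exact two-sided permutation test gave p = 0.0286, the smallest that 70 splits allow, or 0.0416 adjusted over the 16 ratio tests. At 2% oxygen the MCT4-KO and control libraries overlapped (exact permutation p = 0.0857, adjusted 0.105).

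The ratio of Pgm1 to Pgm2 transcripts went from 2.18 ± 0.103 to 9.43 ± 0.868 with low oxygen in control cells and from 2.10 ± 0.125 to 7.94 ± 0.185 in MCT4-KO. With the knockout it was lower at 2% oxygen, without overlap, while at 20% the libraries overlapped (exact permutation p = 0.4). Synthase against phosphorylase transcripts, Gys1 to the sum of Pygl and Pygb, stood at 0.215 ± 0.013 in control and 0.200 ± 0.0045 in MCT4-KO at 20% oxygen, and at 0.584 ± 0.0083 and 0.576 ± 0.0051 at 2%. The genotypes overlapped at both oxygen levels (exact permutation p = 0.0857 at 20% and 0.143 at 2%), and the oxygen levels did not. Branching enzyme to synthase, Gbe1 to Gys1, fell from 1.58 ± 0.113 to 0.686 ± 0.025 in control and from 1.83 ± 0.083 to 0.686 ± 0.0068 in MCT4-KO. That ratio was higher in MCT4-KO at 20% oxygen without overlap, and at 2% the difference was -0.0011 ± 0.026 on the log2 scale (exact permutation p = 1.0). Each comparison of these 3 ratios without overlap had the same p of 0.0286, adjusted 0.0416. The ratios themselves depend on the lengths used, and with the longest transcript Pygl to Pygb was 13.3 in place of 7.47.

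**Figure D4:**
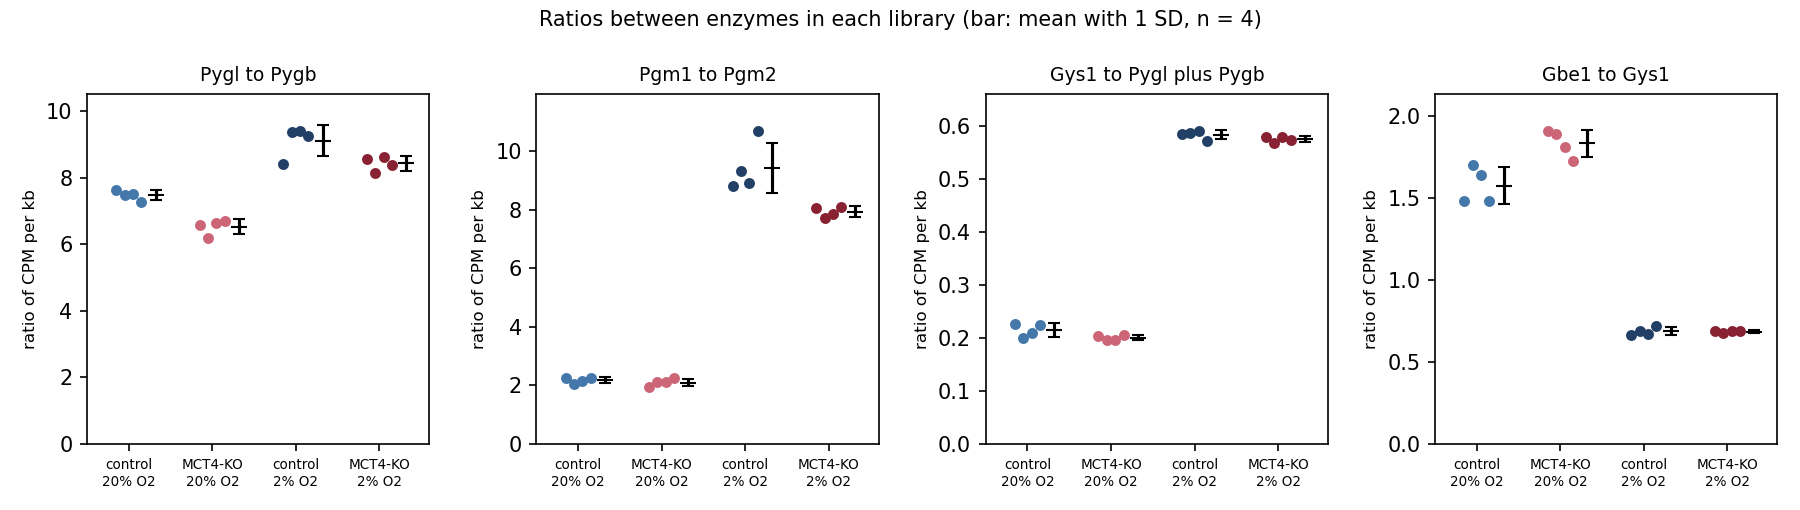
Ratio of CPM per kb between enzymes (y axes, from 0) in each library (points) of the 4 groups (x axis), with mean and 1 SD. Pgm1 to Pgm2 rises from at most 2.26 to 7.73 or more at 2% oxygen, while Gbe1 to Gys1 drops from 1.48 or more to 0.72 or less.

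The likeness of the enzymes to each other was described over the 4 group means of log2 CPM after centring. Ugp2, Pgm2 and Gyg lay close to each other, with root mean square differences of 0.0522 to 0.0721, and Gbe1 and Pygl differed by 0.0856. Gys1 and Pgm1, at 0.277 from each other, lay 0.892 and 0.616 from Pygb. Among 8981 other genes with an average of at least 3 log2 CPM, the pattern most like that of Gys1 was that of Fam162a (difference 0.0613), with means of 35.0 CPM (control) and 27.6 CPM (MCT4-KO) at 20% oxygen and of 291.7 and 261.4 CPM at 2%. Parp16 was next at 0.104. For Gbe1 these were Insig1 (0.0051) and Cpne2 (0.013), for Pgm1 Ier3 (0.032) and Pdk1 (0.068), and for Pygl Crip1 (0.015) and Irs2 (0.016). Pygb was nearest to Lypd6 (0.015) and Gas2l3 (0.031), Gyg to Cyb5a (0.0030) and Mknk2 (0.010), Ugp2 to Atp5e (0.0059) and Zbtb4 (0.0062), and Pgm2 to Atp6v0d1 (0.0046) and Mpp7 (0.0097). With 4 points per gene such likeness is a description only.

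Of 42 further genes of glycogen and of the sugar phosphates around it, 35 were tested, and 23 rose and 5 fell at 2% oxygen in control cells, with 21 and 6 in MCT4-KO. Over all tested genes 38.7% and 37.7% were called higher in these comparisons, and 39.6% and 38.7% lower. Their median log2 fold change was 0.34 in control and 0.31 in MCT4-KO. Pygm, the phosphorylase named after muscle, rose by 2.08 ± 0.172 but stayed low, from 0.843 ± 0.119 to 3.59 ± 0.594 CPM in control. The 5 muscle markers moved beside it in control, from a sum of 0.889 to 2.03 CPM to one of 4.49 to 5.85 CPM, with Myh4 and Tnnt3 at 0. In MCT4-KO Pygm rose by 2.00 ± 0.178, and the marker sum went from 1.11 to 2.06 CPM at 20% oxygen to 3.77 to 4.53 CPM at 2%. The part of these markers was not tested. Gys2, the liver form of the synthase, and Pgm5 were at 0 counts in every library, which allows at most 0.110 to 0.141 CPM in a library.

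The regulators of synthase and phosphorylase did not move as a block. Of the 4 tested subunits that bring protein phosphatase 1 to glycogen, where it activates the synthase, Ppp1r3b rose and Ppp1r3d fell in both genotypes. Ppp1r3b stood at 38.4, 38.6, 38.3 and 40.1 CPM in control at 20% oxygen and at 121.5, 139.5, 122.0 and 135.3 CPM at 2%, a log2 fold change of 1.74 ± 0.050 (edgeR adjusted p = 1.70e-17). It was lower in MCT4-KO at 20% (-0.23 ± 0.053, adjusted p = 0.0082) and at 2% oxygen (-0.22 ± 0.046, 7.61e-04). Ppp1r3d had -0.70 ± 0.078 in control. At 2% against 20% oxygen Ppp1r3e was called lower in MCT4-KO only (-0.30 ± 0.087, edgeR adjusted p = 0.00394), and Ppp1r3f was called in neither genotype. Gsk3b and Gsk3a, kinases that inactivate the synthase, both fell at 2% oxygen, Gsk3b from 167.1 ± 3.83 to 93.6 ± 5.32 CPM in control (-0.84 ± 0.046, adjusted p = 7.25e-13) and Gsk3a by less (-0.18 ± 0.038, 2.07e-04). Neither was called in MCT4-KO against control. Of the 5 phosphorylase kinase genes, whose product activates phosphorylase, Phka2 (0.34 ± 0.046) and Phkb (0.31 ± 0.036) rose in control and Phkg2 fell (-0.43 ± 0.047). Phkg2 shares 21.9% of its exon bases with Ccdc189 on the opposite strand. In MCT4-KO at 2% oxygen Phka2 (0.41 ± 0.044) and Phkb (0.19 ± 0.036) were higher and Phkg2 was lower (-0.35 ± 0.049). Phka2 (0.20 ± 0.046, edgeR adjusted p = 0.00725) and Phkb (0.12 ± 0.036, 0.0453) were called higher in MCT4-KO at 20% oxygen too. That call of Phkb was lost with no filter (0.0681), the replicate block (0.0728) and only the groups compared (0.0787). It was also lost without control replicate 1 (0.0802), 2 (0.15) or 3 (0.0559) at 20% oxygen. The same held without MCT4-KO replicate 1 (0.0658), 2 (0.104) or 3 (0.131) at 20%. Leaving out control replicate 2 or 3 at 2% oxygen, or any MCT4-KO library at 2%, ended it too.

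Among the genes of glycogen quality control and lysosomal breakdown, Epm2a, which encodes the glycogen phosphatase laforin, had the largest log2 fold change by knockout at 2% oxygen among the 35. It stood at 40.6, 44.3, 39.0 and 45.9 CPM in control at 2% oxygen and at 22.5, 24.6, 24.0 and 26.0 CPM in MCT4-KO, with no overlap (log2 fold change -0.81 ± 0.067, edgeR adjusted p = 3.98e-08). At 20% oxygen the means were 8.48 ± 0.908 and 7.5 ± 0.819 CPM with overlapping libraries, and the interaction was -0.63 ± 0.115 (adjusted p = 5.63e-04). Gaa, the lysosomal acid glucosidase, rose at 2% oxygen by 0.62 ± 0.038 in control. Nhlrc1, which encodes the ubiquitin ligase malin, fell in control (-0.49 ± 0.084) and was higher in MCT4-KO at 2% (0.33 ± 0.086).

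All 7 tested genes around glucose 6-phosphate rose at 2% oxygen in both genotypes, beside 38.7% and 37.7% of all genes. Gpi1, which links glucose 6-phosphate to glycolysis, rose by 2.09 ± 0.041 in control (edgeR adjusted p = 6.08e-20), Slc37a4, the glucose 6-phosphate carrier of the endoplasmic reticulum, by 1.43 ± 0.055, Hk1 by 1.23 ± 0.041 and Hk2 by 0.996 ± 0.059, the last 2 being hexokinases. The rise of Hk3, also a hexokinase, depended on single libraries and on scaling. In MCT4-KO it was 0.09 ± 0.034 (edgeR adjusted p = 0.023), and its call was lost without MCT4-KO replicate 2 (0.0768) or 3 (0.0736) at 20% oxygen or replicate 1 at 2% (0.054). With libraries scaled by their totals Hk3 was called lower in MCT4-KO (-0.09, adjusted p = 0.0184) and its rise in control was no longer called (0.216). Of 6 genes of UDP-glucose use and galactose entry, 5 rose in control, among them Galk1 (2.15 ± 0.054), the galactokinase, and Ugdh (1.25 ± 0.046), which turns UDP-glucose into UDP-glucuronate. In MCT4-KO against control, 3 of the 35 genes rose and 1 fell at 20% oxygen, and 7 rose and 8 fell at 2%. The 3 were Phka2, Phkb, whose call was not stable as given above, and Hk3 (0.29 ± 0.034, edgeR adjusted p = 1.38e-05). Hk3 was called higher in MCT4-KO at 2% as well (0.13 ± 0.034, 0.00402). Over all genes 4.96% were called higher and 4.80% lower at 20%, and 19.4% and 19.1% at 2%, so the counts at 2% are near the background. Those at 2% included G6pdx, the entry into the pentose phosphate pathway (0.39 ± 0.041, adjusted p = 5.58e-07), which rose, and Slc37a4 (-0.17 ± 0.051, 0.0121), which fell. The call of Slc37a4 was lost without control replicate 4 (-0.12, adjusted p = 0.0505) or MCT4-KO replicate 2 (0.0579) at 2% oxygen.

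**Figure D5:**
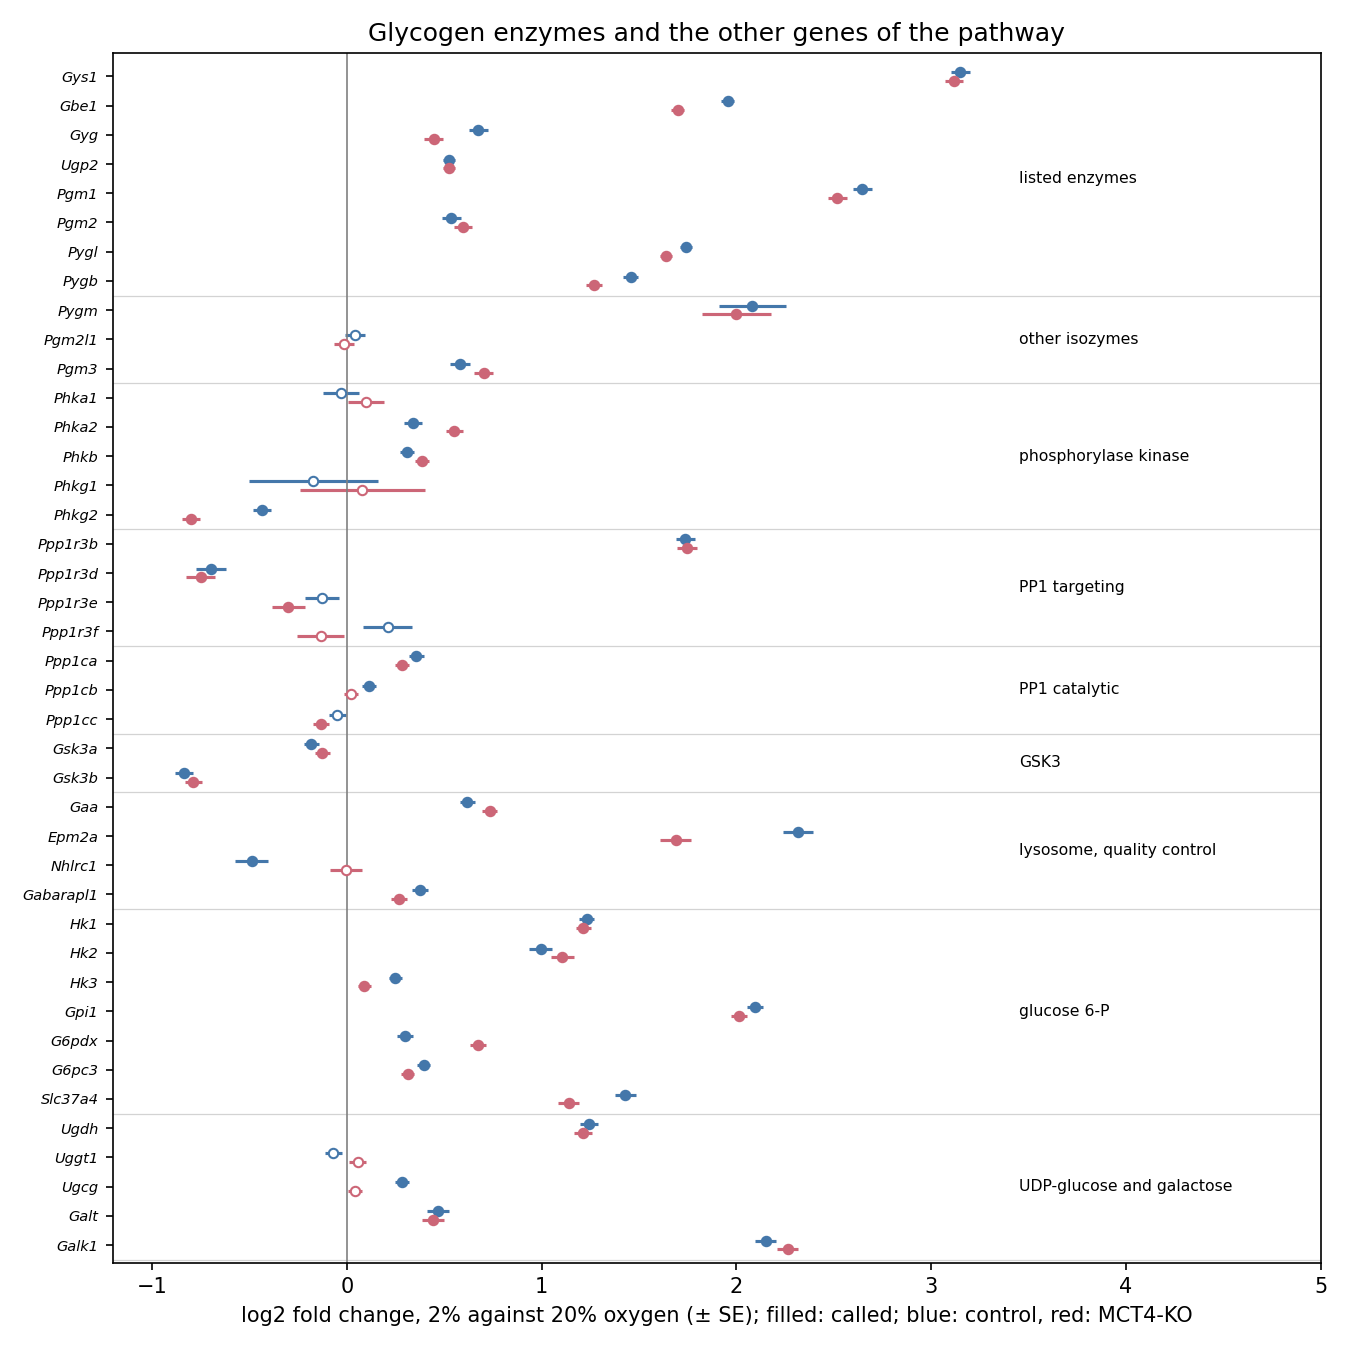
Log2 fold change at 2% against 20% oxygen with its SE (x axis) of the 8 enzymes and the tested genes of the pathway that are reported here (y axis, by role), in control (blue) and MCT4-KO (red), filled where the adjusted p is under 0.05. Gys1 at 3.15 lies furthest to the right, and Gsk3b at -0.84 in control furthest to the left.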

How the data were processed

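RNA was selected by poly(A) and sequenced from 16 libraries in 4 groups of 4, per the labels' protocols. The authors deposited 1 table of expected counts per gene, and the submitters' processing notes name HISAT2, RSEM and mm10. The tool versions, the annotation and any use of strand were not given in the sources used here. All values were rounded, since 10.1% were not whole. Among the 8 enzymes only Gys1 and Pgm1 had values that were not whole. GENCODE vM21 (GRCm38) matched 53620 identifiers, and the 181 others held 0.0237% of the counts.

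Genes were filtered by filterByExpr of edgeR 4.0.16 (R 4.3.3), which kept 13774 with 99.9% of the counts. A quasi-likelihood fit with TMM scaling and a mean per group used all 16 libraries, with 12 residual degrees of freedom and a biological coefficient of variation of 4.61%. Benjamini-Hochberg adjustment ran over all tested genes, and an adjusted p under 0.05 was called. The SE of a log2 fold change from edgeR was its absolute value divided by the square root of its F statistic. Ratios used an exact two-sided permutation test. A library's count of 0 allows up to 3 counts, for counting error only. The promoter table gave 9 promoters for the 8 enzymes.

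Alternatives were DESeq2 size factors, scaling by library size, no filter, at least 1 CPM in 8 libraries, a replicate block, only the groups compared, limma-voom (limma 3.58.1), DESeq2 1.42.0, the longest transcript for ratios, the promoter window to 50 bases after the start and leaving out each library. The text names all 8 enzymes, the genes nearest in pattern by a fixed distance and pathway genes from lists by role. Some listed genes enter the counts and are not reported here by name. The members and lists were chosen with earlier results of these data known.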

Additional observations from a re-analysis of the deposited data

Results flagged for a closer look

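Of the 8 enzymes 3 had a knockout effect that differed between 2% and 20% oxygen by the interaction test of edgeR. Of all tested genes 22.9% were called by this test and 11.3% were called lower. The difference in log2 fold change was -0.257 for Gbe1, -0.228 for Gyg and -0.189 for Pygb, and the knockout effect was lower at 2% for each. Scaling by library size ended the calls of Gyg and Pygb. In 48 groups of 4 values, the 8 enzymes and 4 ratios in 4 groups, a single library was compared with its group by Dixon's ratio, against its 95% critical value, which chance passes in about 1 of 20 groups. Of them 2 passed. In control at 2% oxygen the ratio of Pygl to Pygb was 8.41 in replicate 1 and 9.25, 9.37 and 9.40 in the others, a Dixon ratio of 0.848. In MCT4-KO at 2% oxygen the ratio of Gbe1 to Gys1 was 0.675 in replicate 2 and 0.688 to 0.690 in the others, a Dixon ratio of 0.861.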

How the results depend on the processing

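The 8 enzymes were called higher at 2% oxygen, in control and in MCT4-KO, under all 24 alternatives of each comparison. The size of the smaller rises varied by more than their SE. In control the log2 fold change ran from 0.321 to 0.548 for Ugp2, from 0.333 to 0.5785 for Pgm2 and from 0.471 to 0.726 for Gyg. In MCT4-KO it ran from 0.3475 to 0.534 for Ugp2, from 0.419 to 0.6175 for Pgm2 and from 0.269 to 0.467 for Gyg. Over 952 single values of the enzymes under an alternative, 905 kept direction and side of the threshold, 12 passed it newly, 21 no longer passed and 14 changed sign. In MCT4-KO against control at 20% oxygen the main analysis called 1 enzyme, the stricter filter, limma-voom and DESeq2 called 2, the fit of only the groups compared called 0, and leaving out 1 library gave 0 to 3. Over all genes that comparison called 1344, and 895 to 1699 with 1 library left out, the 895 without MCT4-KO replicate 2 at 20%. At 2% oxygen leaving out 1 library gave 4 to 6 enzymes called in place of 5. The interaction called 3 enzymes, 1 with scaling by library size and 2 to 4 with 1 library left out. Scaling by library size moved the median log2 fold change of all genes to -0.22 in control and -0.19 in MCT4-KO for low oxygen, and the share of calls that were higher to 35.2% and 35.4% from 49.4% and 49.3%. For the knockout that share went to 60.1% from 50.8% at 20% oxygen, to 63.1% from 50.4% at 2%, and to 60.1% from 50.6% for the interaction. The cause of these changes was not tested.

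With scaling by library size 2 calls turned into calls in the other direction, Ppp1cb at low oxygen in control (from 0.11, edgeR adjusted p = 0.00636, to -0.0925, 0.0142) and Hk3 at low oxygen in MCT4-KO (from 0.09 to -0.0881, 0.0184). The Ugp2 interaction, not called either way, became 0.0264. With 1 library left out the Ugp2 interaction ran from -0.025 to 0.012, that of Gys1 from -0.073 to 0.015, and the knockout effect on Pgm2 from -0.053 to 0.0075 at 20% oxygen and from -0.0020 to 0.062 at 2%. The log2 difference in Gbe1 to Gys1 by knockout at 2% oxygen ran from -0.0168 to 0.0221. The longest transcript in place of the union of exons changed no call of a ratio test. For a ratio of single genes it could not, since the length factor is the same in every library and leaves the group difference unchanged. Only the tests of Gys1 to the sum of Pygl and Pygb could have moved. With the promoter window to 50 bases after the start 6 of the 8 enzymes held a match, as before.

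No pairing of libraries by replicate number was seen. Of 24 same-number pairs 3 correlated above 0.1 (range -0.403 to 0.257), and 0 libraries correlated best with their own number. This cannot exclude a pairing, since one with a small shared effect would not show in such correlations. With the replicate block 1059 genes were called for the knockout at 20% oxygen and 4984 at 2%, and among the enzymes 1 and 4, the call of Ugp2 being lost. Each group is 1 set of 4 libraries of 1 cell line, levels are relative, and knockout effects near 0.1 on the log2 scale are at the limit of this spread.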
